A study of Mus musculus with 8 samples.

Results

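A set of 10 genes of lipolysis and of lipoprotein lipase control was followed in mouse 3T3-L1 adipocytes, a line of pre-adipocytes that becomes fat-storing in culture. The genes were chosen by name for their place in the breakdown of stored triglyceride, in its hormonal control, in the release of its products and in the uptake of fatty acids from lipoproteins. All 10 were found among the 43629 genes counted, as Pnpla2, Lipe, Mgll, Pnpla3, Abhd5, G0s2, Adrb3, Aqp7, Lpl and Angptl4. Polyadenylated RNA was sequenced in 4 groups with 2 libraries each.

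Every culture had been differentiated with insulin, dexamethasone, isobutylmethylxanthine and rosiglitazone, and treatment began on day 8 and lasted 24 h. One group was left untreated, the second received A66 at 2 uM, the third palmitate at 0.5 mM conjugated to bovine serum albumin (BSA), and the fourth palmitate and A66 together at these doses. A66 is a small molecule that inhibits p110α, the catalytic subunit of phosphoinositide 3-kinase that acts downstream of the insulin receptor, and palmitate is a saturated fatty acid. The labels name no culture with BSA alone, so effects of palmitate and of its carrier cannot be told apart. The study's methods state a DMSO vehicle and another dose for A66, whereas the labels name untreated cells as the control. Groups and directions follow the labels. The sources used here leave doubt over which of the untreated and A66 groups is which, and no gene measured settles it by itself. With these labels exchanged, every A66 value against untreated cells would have the opposite sign, that of Aqp7, Hcar2 and Ces1d included, palmitate would have been compared with A66 in place of untreated cells, and palmitate plus A66 with untreated cells in place of A66. An exchange also between palmitate and palmitate plus A66 would turn the sign of their comparison. With only the first exchange, the interaction would be the sum of the A66 values without and with palmitate, not their difference. The counts of genes with the same sign in paired comparisons would differ too, and neither was computed. The methods speak of biological repeats of this 1 cell line.

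Fat cells break triglyceride down in steps. Adipose triglyceride lipase (Pnpla2) removes the first fatty acid, hormone-sensitive lipase (Lipe) acts mainly on the diacylglycerol that results, and monoacylglycerol lipase (Mgll) takes the last, which leaves glycerol. Catecholamines start the process through β-adrenergic receptors and cyclic AMP, and insulin restrains it through phosphoinositide 3-kinase. Lipoprotein lipase (Lpl) works outside the cell, where it releases fatty acids from circulating lipoproteins, and Angptl4 is its inhibitor.

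The libraries held between 42247091 and 57529803 counts, so that 3 counts, taken as the floor, stood for 0.0521 to 0.0710 CPM, a limit that covers counting error only. CPM is the count of a gene scaled to the total of its library, which for the levels of genes was multiplied by its TMM factor from edgeR. The most abundant gene of every library was mt-Co1, at 5.27% to 5.76% of counts. Markers of adipocytes were high throughout, with a summed level of 8465 to 10647 CPM over 12 genes and none at 0. Markers of preadipocytes and fibroblasts summed to 10619 to 11761 CPM over 14 genes, with Dlk1, which marks preadipocytes, listed at 0. Macrophage markers summed to between 5.82 and 8.79 CPM, with Adgre1 listed at 0, and endothelial markers to between 1.09 and 1.79 CPM. Ppp1ca, a phosphatase gene that every cell uses, was also listed at 0 in all 8 libraries, so a 0 here does not show that a gene was silent. Replicates of a group differed by more than counting noise, and the 10 genes shared these differences. All 10 were higher in replicate 1 than in replicate 2 of A66, and all 10 were lower in replicate 1 than in replicate 2 of palmitate, with a median log2 difference of 0.088 and -0.20, respectively. In palmitate plus A66, 9 of the 10 were lower in replicate 1, with a median of -0.10, and in untreated cells 9 were higher in replicate 1, with a median of 0.038. Differences between groups were tested on raw counts with edgeR (quasi-likelihood test) and adjusted after Benjamini and Hochberg over all genes tested, and a gene was called at an adjusted p under 0.05. In RNA from whole cultures, fewer cells of a type and less RNA per cell cannot be told apart.

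Set against each other per length, the 10 genes covered a wide range. In untreated cells Lpl was highest, at 930 ± 23.6 FPKM (SD, n = 2), here CPM per kilobase of merged exons. The triglyceride lipase Pnpla2 followed at 382 ± 1.62 FPKM, its inhibitor G0s2 at 179 ± 2.92 and Lipe at 141 ± 1.78. The receptor Adrb3 stood at 36.5 ± 0.777 FPKM, Angptl4 at 32.7 ± 1.19 and Abhd5 at 30.8 ± 0.383. Pnpla3 at 17.3 ± 1.67 FPKM and the glycerol channel Aqp7 at 15.7 ± 0.918 overlapped between the libraries, and no other neighbours in this order did. Mgll was far below the rest, at 0.690 ± 0.0740 FPKM, on 160 and 175 counts in the untreated libraries, and 111 to 192 in all 8. When the longest principal transcript replaced the merged exons, an alternative chosen after the data had been seen, Lpl had 2369 FPKM and Pnpla2 641, Lipe at 229 passed G0s2 at 179, and Abhd5 at 58.1 passed Adrb3 at 44.1 and Angptl4 at 35.0. By counts alone Lpl ranked 4 among all genes in untreated cells, with 0.983% of all counts, and 8 in palmitate plus A66, with 0.825%.

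**Figure D1:**
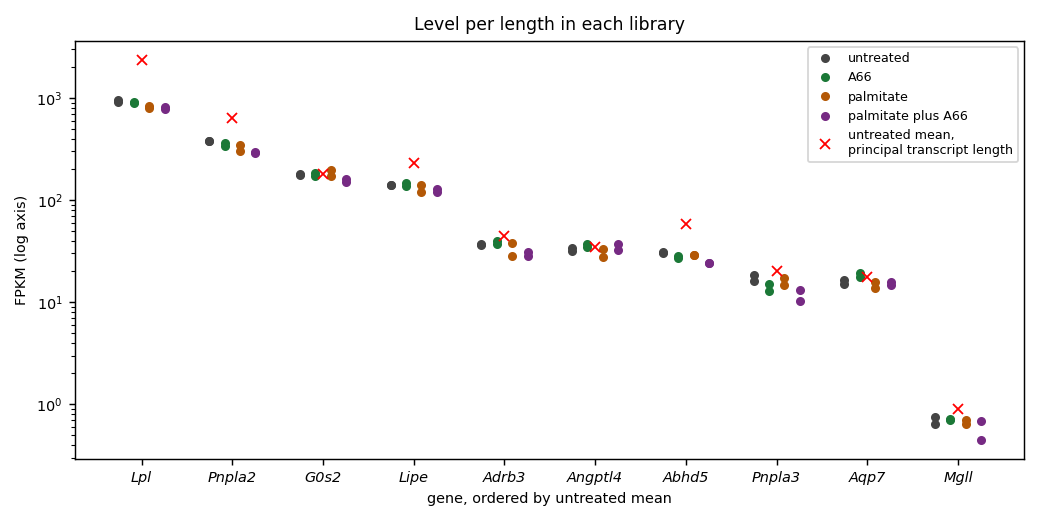
Level per length of the 10 genes in each of the 8 libraries, in FPKM on a log axis, with genes ordered by their untreated mean and points coloured by group; crosses give the untreated mean with the length of the principal transcript. Lpl lies at the top, at 930 FPKM in untreated cells, and Mgll at the bottom, at 0.690 FPKM.

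Pnpla2 (ENSMUSG00000025509; GRCm38 chromosome 7, 141455198 to 141460743, forward strand) encodes the lipase that opens triglyceride breakdown. It stood at 1156 and 1149 CPM in untreated cells, 1089 and 1016 under A66, 904 and 1040 under palmitate, and 880 and 890 with palmitate plus A66. The libraries of each palmitate group lay below both untreated libraries, and 1 palmitate library overlapped the A66 range. Pnpla2 fell with palmitate by 0.25 on the log2 scale (SE 0.0517, adjusted p = 0.0164 by edgeR), and by 0.25 again when palmitate plus A66 was set against A66 (SE 0.0518, adjusted p = 0.00637). The latter call, like that of every gene of the 10 in this comparison, was lost without A66 replicate 1 and without palmitate plus A66 replicate 1. Its log2 fold change with A66 was -0.13 in untreated cells and -0.13 in palmitate-treated cells, and neither passed the threshold (adjusted p = 0.112 and 0.199). The fall with palmitate did not pass by DESeq2 (adjusted p = 0.0739), nor without untreated replicate 1 (0.0984), untreated replicate 2 (0.0536) or palmitate replicate 1 (0.270).

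Lipe (ENSMUSG00000003123; chromosome 7, 25379527 to 25398710, reverse strand), the hormone-sensitive lipase, stood at 835 and 820 CPM in untreated cells, 862 and 809 under A66, 708 and 822 under palmitate, and 698 and 750 with both. Only the combination lay wholly below the untreated and A66 libraries. Lipe was lower with palmitate plus A66 than with A66 alone, with a log2 fold change of -0.21 (SE 0.0548, adjusted p = 0.0426 by edgeR; DESeq2, 0.215). In the other comparisons its log2 fold changes ran from -0.11 to 0.017, with no call. The antisense gene 4732471J01Rik shares 918 exonic bases with Lipe and had 69 counts over the 8 libraries.

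Mgll (ENSMUSG00000033174; chromosome 6, 88724412 to 88828360, forward strand), which completes the breakdown, had between 2.29 and 3.77 CPM. The lowest value was that of palmitate plus A66 replicate 1, and the other 7 libraries lay between 3.24 and 3.77. No comparison called it, with standard errors of 0.166 to 0.182 in the pairwise contrasts, against 0.0331 to 0.0438 for Lpl. The antisense gene Gm26588 shares 167 exonic bases with Mgll and had 582 counts over the 8 libraries, so with the strand setting of the counting not given, a part of the Mgll counts is uncertain.

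Pnpla3 (ENSMUSG00000041653; chromosome 15, 84167837 to 84187236, forward strand), a paralogue of Pnpla2 that acts on lipid droplets, stood at 28.6 and 24.9 CPM in untreated cells, 23.5 and 20.1 under A66, 22.6 and 26.5 under palmitate, and 16.0 and 20.6 with both. Each group given A66 lay below its counterpart without A66. Pnpla3 was lower with palmitate plus A66 than with palmitate, with a log2 fold change of -0.43 (SE 0.102, adjusted p = 0.0215 by edgeR). DESeq2 gave an adjusted p of 0.229, and the call was also lost without palmitate replicate 2 (0.288) or palmitate plus A66 replicate 1 (0.340). With A66 alone the log2 fold change was -0.29 (SE 0.0809, adjusted p = 0.0740), which passed with a replicate block (0.0259), without untreated replicate 2 (0.000391) and without A66 replicate 1 (0.0288).

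Abhd5 (ENSMUSG00000032540; chromosome 9, 122351608 to 122381524, forward strand) encodes the coactivator of the Pnpla2 lipase. It stood at 185 and 182 CPM in untreated cells, 167 and 163 under A66, 171 and 174 under palmitate, and 146 and 145 with palmitate plus A66. No groups overlapped, in the order untreated, palmitate, A66 and the combination. Abhd5 was lower with palmitate plus A66 than with palmitate, with a log2 fold change of -0.25 (SE 0.0400, adjusted p = 0.00102 by edgeR), and this call was kept under every alternative run, with adjusted p up to 0.0195. It was also lower with palmitate plus A66 than with A66 (log2 fold change -0.18, SE 0.0402, adjusted p = 0.0115). With A66 alone the log2 fold change was -0.15 (SE 0.0406, adjusted p = 0.0559; DESeq2, 0.0439), and with palmitate alone -0.090 (SE 0.0398, adjusted p = 0.355).

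G0s2 (ENSMUSG00000009633; chromosome 1, 193272161 to 193273217, reverse strand) encodes the inhibitor of the Pnpla2 lipase. It stood at 158 and 154 CPM in untreated cells, 160 and 151 under A66, 150 and 172 under palmitate, and 130 and 140 with palmitate plus A66. The first 3 groups overlapped, and both libraries of the combination lay below them. G0s2 was lower with palmitate plus A66 than with palmitate (log2 fold change -0.25, SE 0.0536, adjusted p = 0.00929 by edgeR) and than with A66 (-0.20, SE 0.0538, adjusted p = 0.0441). The first of these calls was lost without palmitate replicate 2 (0.266) or palmitate plus A66 replicate 1 (0.152). The changes with A66 alone and palmitate alone were -0.0024 and 0.044 on the log2 scale.

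Adrb3 (ENSMUSG00000031489; chromosome 8, 27225776 to 27250616, reverse strand) encodes the β-adrenergic receptor typical of rodent fat cells. It stood at 125 and 122 CPM in untreated cells, 133 and 126 under A66, 95.2 and 127 under palmitate, and 95.0 and 104 with palmitate plus A66. The palmitate replicates lay furthest apart, 1 near the combination and 1 within the A66 range. Adrb3 was lower with palmitate plus A66 than with A66, with a log2 fold change of -0.38 (SE 0.0784, adjusted p = 0.00686 by edgeR; DESeq2, 0.176), and was called in no other comparison. The log2 fold change with palmitate, -0.15, was -0.37 without palmitate replicate 2 and 0.041 without palmitate replicate 1. The antisense gene Gm45470 shares 839 exonic bases with Adrb3 and is not among the genes counted. With the strand setting of the counting not given, a part of the Adrb3 counts is thus uncertain.

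Aqp7 (ENSMUSG00000028427; chromosome 4, 41033074 to 41048139, reverse strand) encodes the channel through which fat cells release glycerol. It stood at 46.2 and 42.6 CPM in untreated cells, 54.7 and 49.9 under A66, 38.5 and 44.2 under palmitate, and 41.5 and 44.6 with both. The A66 libraries were the highest 2 of the 8, and the other 3 groups overlapped. Aqp7 was lower with palmitate plus A66 than with A66, with a log2 fold change of -0.28 (SE 0.0654, adjusted p = 0.0166 by edgeR). In the absence of palmitate it was the only gene of the 10 called with A66, with a log2 fold change of 0.24 (SE 0.0580, adjusted p = 0.0293). That call was lost by DESeq2 (0.0542), in a fit on all 8 libraries (0.0782), without untreated replicate 2 (0.0683) and without A66 replicate 1 (0.532). In the presence of palmitate the log2 fold change with A66 was 0.059 (SE 0.0658, adjusted p = 0.749).

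Lpl (ENSMUSG00000015568; chromosome 8, 68880491 to 68907448, forward strand) stood at 9924 and 9574 CPM in untreated cells, 9462 and 9260 under A66, 8410 and 8716 under palmitate, and 8164 and 8518 with palmitate plus A66. All 4 libraries given palmitate lay below all 4 that were not. Lpl fell with palmitate by 0.19 on the log2 scale (SE 0.0438, adjusted p = 0.0331 by edgeR), and with palmitate plus A66 against A66 by 0.17 (SE 0.0438, adjusted p = 0.0397). The fall with palmitate was not called in a fit on the 4 libraries compared (adjusted p = 0.189) or with a correction for length (0.0587), nor without untreated replicate 1 (0.313), untreated replicate 2 (0.0679), A66 replicate 1 (0.0894), A66 replicate 2 (0.0785) or palmitate replicate 1 (0.136). With A66 its log2 fold changes were -0.056 and -0.038, with no call.

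Angptl4 (ENSMUSG00000002289; chromosome 17, 33773750 to 33781830, reverse strand), whose protein inhibits lipoprotein lipase, stood at 113 and 119 CPM in untreated cells, 132 and 122 under A66, 99.0 and 117 under palmitate, and 114 and 131 with both. Angptl4 was not called in any comparison of all libraries. Its log2 fold change with A66 was 0.13 (SE 0.0461, adjusted p = 0.172) without palmitate and 0.19 (SE 0.0643, adjusted p = 0.136) with it, and the groups overlapped in the second case only. It was called as higher with A66 without untreated replicate 2 (adjusted p = 0.0112), and in the presence of palmitate without palmitate replicate 2 (0.0195) or palmitate plus A66 replicate 1 (0.0400).

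**Figure D2:**
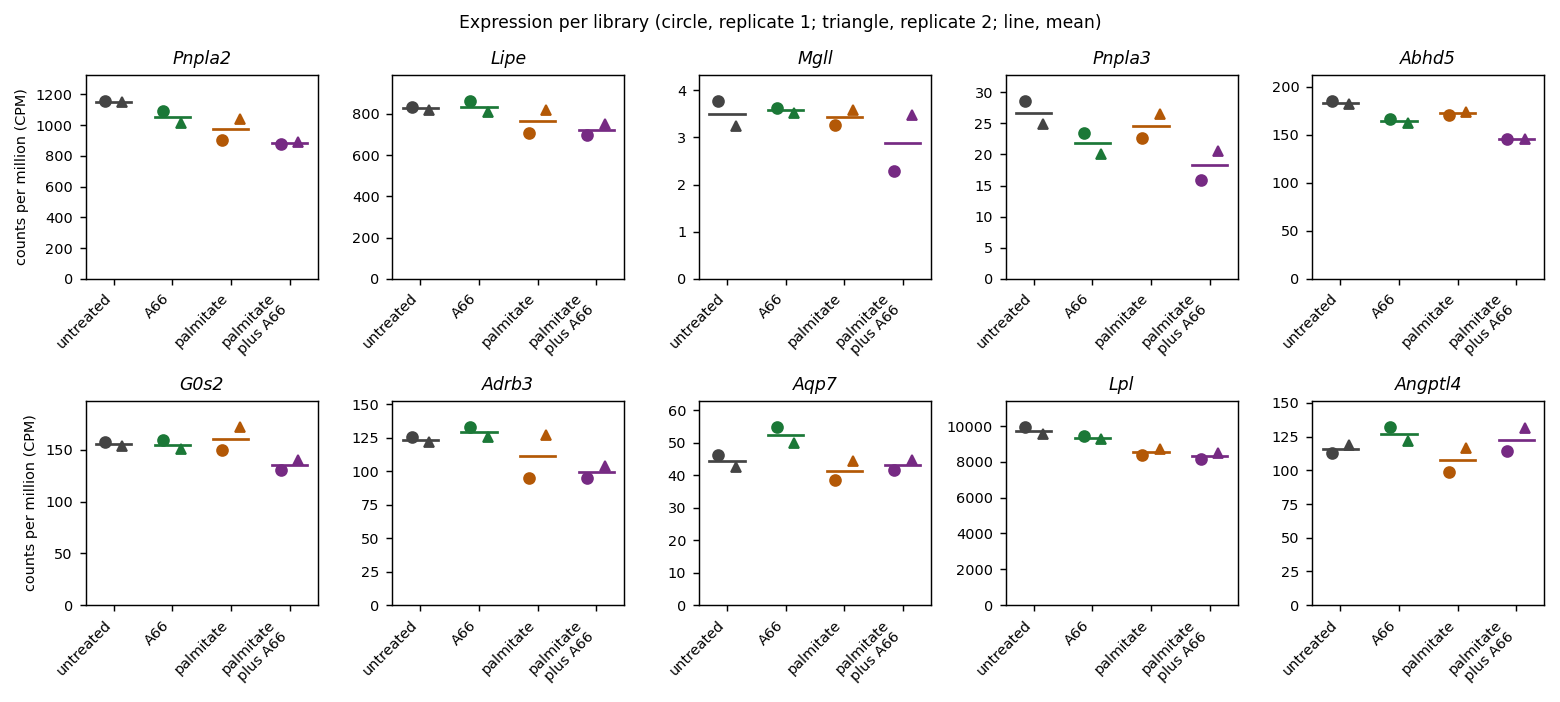
Expression of each gene in the 8 libraries, in CPM on axes that start at 0; circles are replicate 1, triangles replicate 2 and lines group means. All 4 libraries given palmitate lie below the other 4 for Lpl, from 8164 to 8716 against 9260 to 9924 CPM, and Abhd5 is lowest with palmitate plus A66.

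Viewed by comparison, the effect of A66 on the 10 genes without palmitate was small and mixed. Aqp7 was higher and none was lower, so that 1 of 10 was called, where 1.84% of the 14158 genes tested were called in either direction and 1.07% as higher. Over all genes 152 were higher and 109 lower, and scaling by library size alone gave 126 and 154. Of the 10, 5 had a positive and 5 a negative log2 fold change, with a median of 0.0074 against -0.0011 over all genes. An unadjusted p under 0.05 by edgeR was found for 5 of the 10, against 1813 of 14158 over all genes. They were Aqp7 and Angptl4, with positive values, and Pnpla2, Pnpla3 and Abhd5, with negative ones. Leaving out A66 replicate 1 took away the Aqp7 call, and the number of calls, among the 10 and over all genes, changed with the library left out.

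In the presence of palmitate, A66 was accompanied by lower Abhd5, G0s2 and Pnpla3. These 3 of 10 stood against 2.81% of the 14587 genes tested that were called in either direction and 1.84% called as lower. Over all genes 142 were higher and 268 lower, and scaling by library size alone gave 107 and 350. Of the 10 genes, 8 had a negative value, with a median log2 fold change of -0.15 against -0.00079 over all genes. Leaving out palmitate replicate 2 or palmitate plus A66 replicate 1 took away the calls of G0s2 and Pnpla3 and left that of Abhd5. The comparisons of A66 without and with palmitate share no library. With the labels as given, their values had the same sign for 7 of the 10 genes and for 58.6% of 14158 genes.

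Palmitate alone was accompanied by lower Pnpla2 and Lpl, 2 of 10, where 1.17% of the 14587 genes tested were called in either direction and 0.542% as lower. Over all genes 92 were higher and 79 lower, and scaling by library size alone gave 83 and 105. Of the 10 genes, 9 had a negative value and G0s2 a positive one, with a median log2 fold change of -0.11 against 0.00053 over all genes. No gene of the 10 was called without untreated replicate 1, without untreated replicate 2 or without palmitate replicate 1. Only 1 was called with either A66 replicate left out.

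Palmitate in the presence of A66 was accompanied by the most calls. Pnpla2, Lipe, Abhd5, G0s2, Adrb3, Aqp7 and Lpl were lower, 7 of 10, where 2.73% of the genes tested were called in either direction and 1.27% as lower. Over all genes 213 were higher and 185 lower, and scaling by library size alone gave 180 and 266. All 10 log2 fold changes were negative, with a median of -0.23 against 0.00044 over all genes. Without A66 replicate 1, the highest A66 library for all 10 genes, none was called, and without palmitate plus A66 replicate 1 none was called either. Without A66 replicate 2, Pnpla2, Adrb3 and Aqp7 were called. The call of Lpl was also lost without untreated replicate 2, and those of Lpl and Abhd5 without palmitate plus A66 replicate 2. This comparison shares no library with that of palmitate and untreated cells, and the values of the pair had the same sign for 9 of the 10 genes and for 58.2% of 14587 genes.

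**Figure D3:**
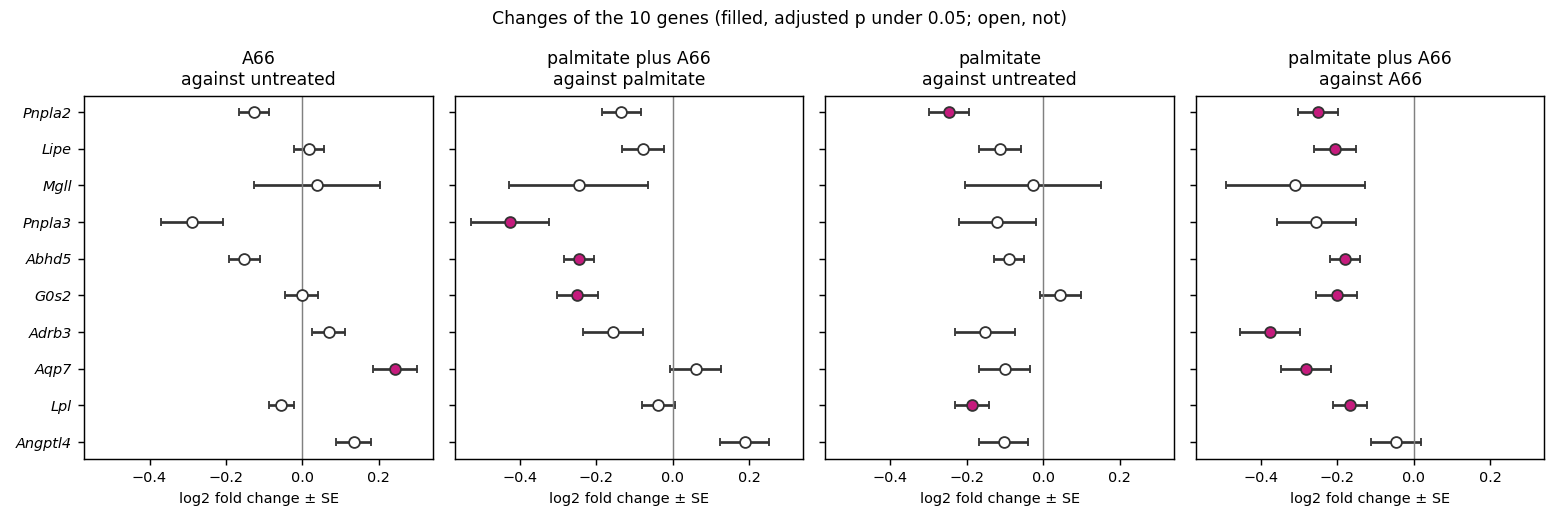
Log2 fold change of each gene, with its standard error, in the 4 pairwise comparisons; filled points have an adjusted p under 0.05. Only Aqp7 is filled with A66 alone, Abhd5, G0s2 and Pnpla3 are filled for A66 in the presence of palmitate, and all 10 points lie below 0 for palmitate plus A66 against A66.

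The interaction of A66 and palmitate, which asks whether the effect of one differs with the other, was called for none of the 10 genes by edgeR's quasi-likelihood test. One of the 10 had an unadjusted p under 0.05, and DESeq2 also called none of the 10. Over all genes 1 was called, or 0.00686% of 14587, the heme oxygenase gene Hmox1, named after its value was seen, and 1155 had an unadjusted p under 0.05. DESeq2 called 21. The value was negative for 8 of the 10 genes, with a median of -0.11 against 0.0021 over all genes, and for 11 of the 12 adipocyte markers, with a median of -0.15. The gene with an unadjusted p under 0.05 was G0s2, with an interaction of -0.25 on the log2 scale (SE 0.0758, adjusted p = 0.414). Adrb3 had -0.22 (SE 0.110, adjusted p = 0.642) and Pnpla2 -0.0044 (SE 0.0731, adjusted p = 0.995). Thus a change called with A66 or palmitate in only 1 background was not shown to differ between backgrounds, with the labels as given.

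Adipocyte markers moved with the 10 genes. Over all genes tested, 1.84% were called in either direction with A66 and 1.17% with palmitate. With palmitate plus A66, 2.81% were called against palmitate and 2.73% against A66. Counts of calls in this and the following lists stand beside these shares, and a count near them is no result about a list. Their summed level was 10097 and 10319 CPM in untreated cells, 10647 and 10051 under A66, 9122 and 9901 under palmitate, and 8465 and 9263 with palmitate plus A66. With palmitate plus A66 against A66, 8 of the 12 markers were lower and none higher, with a median log2 fold change of -0.26. Among them were Adipoq (-0.24), which encodes adiponectin, Plin1 (-0.28), which coats the lipid droplet, and Slc2a4 (-0.22), the insulin-responsive glucose transporter. Only 2 of the 12 were called without A66 replicate 1, and 2 without palmitate plus A66 replicate 1. With palmitate plus A66 against palmitate 4 of the 12 were lower, of which Cidec and Slc2a4 were not called without palmitate replicate 2 (adjusted p = 0.532 and 0.201) or without palmitate plus A66 replicate 1 (0.376 and 0.122). With palmitate or A66 alone 1 was lower, Acsl1 in both cases (log2 fold change -0.25 and -0.23), which activates long-chain fatty acids. The palmitate call of Acsl1 was lost without untreated replicate 1 or palmitate replicate 1, and the A66 call without A66 replicate 2. The summed preadipocyte and fibroblast markers ranged from 10619 to 11055 CPM in untreated cells, from 10952 to 11119 with A66, from 11181 to 11761 with palmitate and from 10837 to 10994 with both. Of 13 of these markers tested, 2 were higher with palmitate, Col1a1 (0.25) and Lum (0.27), matrix genes, with the call of Lum lost without untreated replicate 2 or palmitate replicate 2. With A66 alone Acta2 (0.23) and Tagln (0.45), genes of the contractile cytoskeleton, were higher, and neither was called without A66 replicate 2 (adjusted p = 0.623 and 0.156), nor Acta2 by DESeq2 (0.523) or in a fit on all 8 libraries (0.251). Col1a1 (-0.33) and Lum (-0.26) were lower with palmitate plus A66 against palmitate, and Acta2 (0.35) and Tagln (0.35) higher. Of these 4 calls only that of Col1a1 held without palmitate replicate 2 and without palmitate plus A66 replicate 1, and DESeq2 did not call Acta2 (0.434) or Tagln (0.302). Of 3 macrophage markers tested, none was called with palmitate by edgeR or DESeq2, and 1 had an unadjusted p under 0.05, Cd68 (0.42, adjusted p = 0.277), where 1753 of all 14587 genes had one. Cd68 was higher with palmitate plus A66 against A66 by 0.91, a call lost without A66 replicate 1 (adjusted p = 0.0678), while Lyz2 had a log2 fold change of -0.32 and Csf1r one of 0.30, with no call. The part of the adipocyte markers in the changes of the 10 genes was not tested.

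Lipolytic signalling, the receptors, G proteins, cyclases, phosphodiesterases and kinase subunits on either side of cyclic AMP, was taken as a list of 34 genes, of which 28 were tested. With A66 1 of the 28 was higher and none lower, where 1.84% of all genes tested were called in either direction. This was Hcar2, an anti-lipolytic receptor of the cell surface, at 13.4 and 14.0 CPM in untreated cells and 17.6 and 17.8 with A66 (log2 fold change 0.37, SE 0.0806, adjusted p = 0.0142 by edgeR). The call was lost in a fit on all 8 libraries (0.127), without A66 replicate 1 (0.0933) and without A66 replicate 2 (0.128). Npr3, which clears natriuretic peptides, had 0.18 (adjusted p = 0.106). With palmitate none was called by edgeR's test, 6 had an unadjusted p under 0.05, against 1753 of 14587 over all genes, and DESeq2 called 1. The smallest p belonged to Akap1 (-0.15, adjusted p = 0.0934), an anchor of protein kinase A. Adrb1 did not pass the filter on low counts. With palmitate plus A66 against A66 3 were lower and none higher. They were Hcar2 (-0.53), Hcar1 (-0.36), its lactate-binding relative, and Pde3b (-0.23), the phosphodiesterase through which insulin restrains lipolysis. None of the 3 was called without A66 replicate 1, Hcar1 alone was without palmitate plus A66 replicate 1, and Pde3b was lost without A66 replicate 2. The median of the list was -0.067 with palmitate and -0.079 with palmitate plus A66 against A66.

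Other hydrolases and lipid droplet proteins were a list of 34 genes, of which 30 were tested with A66 and 31 in the remaining comparisons. With A66 2 were higher and 1 lower. Ces1d (0.25, adjusted p = 0.00167 by edgeR) and Ces1f (0.22, adjusted p = 0.00694), related carboxylesterases, rose, and did so again with palmitate plus A66 against palmitate (0.20 for each). Whether reads were shared between them was not tested. Plin4, a droplet coat protein, fell with A66 by 0.18 (adjusted p = 0.00743). Without A66 replicate 1 none of the 3 was called (adjusted p = 0.0917, 0.205 and 0.0759), and Plin4 was lost also without A66 replicate 2 (0.114) and in a fit on all 8 libraries (0.0808). In the presence of palmitate both carboxylesterase calls were lost without palmitate plus A66 replicate 2, and that of Ces1f without palmitate replicate 1. There Cidec, which promotes large droplets, was lower (-0.23), but not by DESeq2 (0.324), nor without palmitate replicate 2 (0.532) or palmitate plus A66 replicate 1 (0.376). With palmitate none of the 31 was called by edgeR's test, 7 had an unadjusted p under 0.05, against the same 1753 of 14587, and DESeq2 called 2. Plin2, a droplet coat protein of most cell types, had a log2 fold change of 0.17 (adjusted p = 0.0572) and Plin4 one of -0.19 (adjusted p = 0.0758). Plin2 stood at 209 and 226 CPM in untreated cells, 233 and 234 under A66, 242 and 248 under palmitate, and 264 and 276 with both, with no overlap between groups, and rose with palmitate plus A66 against A66 by 0.21 (adjusted p = 0.00737). In that comparison Plin1 (-0.28), Cidec (-0.32) and Gpd1 (-0.28), which makes glycerol 3-phosphate, were lower. Plin1 and Cidec are also among the adipocyte markers above, so their falls are not separate results. The calls of these 3 genes were lost without A66 replicate 1 or without palmitate plus A66 replicate 1, and that of Cidec by DESeq2 (0.0735). The Plin2 call was lost without either A66 replicate and without palmitate plus A66 replicate 2.

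Partners of lipoprotein lipase, meaning its receptors, chaperones, anchors and the apolipoproteins it meets, were a list of 25 genes, of which 20 were tested with A66 and 21 in the remaining comparisons. By edgeR 1 was lower with A66, and 1 was higher and 1 lower with palmitate. With palmitate plus A66, none was called against palmitate, and 1 was higher and 2 lower against A66. Calls not named below belong to genes not reported here. Apoc1, an apolipoprotein that restrains lipoprotein lipase, stood at 121 and 124 CPM in untreated cells, 135 and 117 under A66, 82.0 and 93.9 under palmitate, and 85.2 and 106 with both. Both groups given palmitate lay below the other libraries. Apoc1 fell with palmitate by 0.48 (adjusted p = 0.000854 by edgeR), and with palmitate plus A66 against A66 by 0.40, where Apoe (-0.32) was lower too. DESeq2 called neither fall of Apoc1 (0.0562 and 0.109) nor that of Apoe (0.367), and in the latter comparison both genes were lost without A66 replicate 1 or palmitate plus A66 replicate 1, and Apoe also without A66 replicate 2. Sdc1, a heparan sulfate proteoglycan, had -0.16 with A66 (adjusted p = 0.122). Gpihbp1, the endothelial anchor of the lipase, had at most 0.0186 CPM in any library, below the floor of 3 counts.

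Genes that respond to PPAR transcription factors and fatty acids were a list of 24, of which 23 were tested. By edgeR's test none was called with A66, with palmitate or with palmitate plus A66 against palmitate, where 4, 5 and 4 had an unadjusted p under 0.05 and DESeq2 called 0, 1 and 1. Over all genes 1813 of 14158, 1753 of 14587 and 2101 of 14587 had such a p in these comparisons, and these counts are no result about the list. In palmitate plus A66 against A66 1 of the 23 was higher, Plin2, which is also among the droplet proteins above and has the losses given there, 8 had an unadjusted p under 0.05, against 2123 of 14587 over all genes, and DESeq2 called 3. Fgf21, a hormone gene, had a log2 fold change of 1.11 with palmitate (SE 0.338, adjusted p = 0.131), and Acot1, an acyl-CoA thioesterase, 1.12 with A66 (SE 0.408, adjusted p = 0.211). Of 20 targets of FOXO transcription factors, which insulin holds back through phosphoinositide 3-kinase, none was called with A66 by edgeR or DESeq2, and 4 had an unadjusted p under 0.05, against 1813 of 14158 over all genes. Klhl24 (0.14, adjusted p = 0.0770) and Fbxo32 (0.22, adjusted p = 0.239) had the smallest p, and the absence of calls depended on untreated replicate 2. With palmitate Gadd45a, a growth arrest gene, rose by 0.22 (adjusted p = 0.0327) and Bcl6, a repressor of transcription, fell by 0.21 (adjusted p = 0.0284). Neither was called without untreated replicate 1 (0.367 and 0.143) or without palmitate replicate 1 (0.335 and 0.204), Gadd45a was not with a correction for length (0.0524), and Bcl6 was not without untreated replicate 2 (0.0784) or palmitate replicate 2 (0.0700). Of the 20, 2 were higher with palmitate plus A66 against palmitate, Gadd45a (0.24, adjusted p = 0.00904) and Pik3ip1 (0.19, adjusted p = 0.0499), and 1 lower, Klf15 (-0.19, adjusted p = 0.0278). Without palmitate replicate 2 or palmitate plus A66 replicate 2 none of the 3 was called, and the calls of Pik3ip1 and Klf15 were lost with either replicate of either group left out. That of Pik3ip1 was lost also without either A66 replicate, with scaling by library size alone (0.0911), with a replicate block (0.0533) and by DESeq2 (0.0631). The same 3 genes were called in palmitate plus A66 against A66, where Gadd45a was higher by 0.33 (adjusted p = 0.000376) and Klf15 lower (-0.26, adjusted p = 0.00234), both under every alternative tried, and Pik3ip1 was higher by 0.21 (adjusted p = 0.0284), which was lost without either A66 replicate, without palmitate plus A66 replicate 1 and with scaling by library size alone (0.0514).

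**Figure D4:**
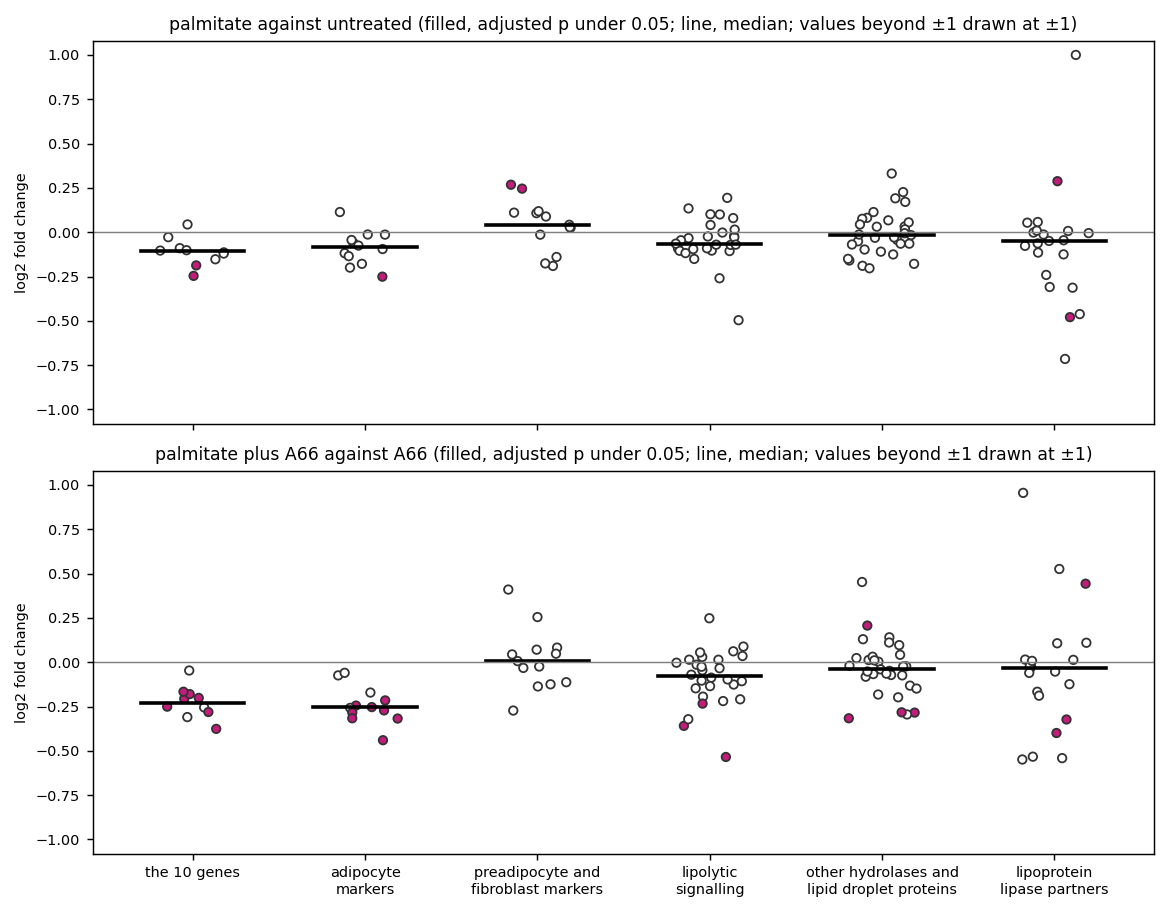
Log2 fold change of the 10 genes and of the genes tested in 5 lists, for palmitate against untreated cells and for palmitate plus A66 against A66; each point is a gene, filled where the adjusted p is under 0.05, and lines are medians. The medians of the 10 genes (-0.11 and -0.23) lie close to those of the adipocyte markers (-0.085 and -0.26).

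The genes whose level over the 8 libraries was most like that of Pnpla2, the gene of the 10 with the greatest change with palmitate, were Marveld1 (Pearson r = 0.98), Coasy (0.98), Gusb (0.98), Fitm2 (0.97) and Plcb3 (0.97), of 8955 genes with a mean of at least 10 CPM. Their log2 fold changes with palmitate lay between -0.16 for Fitm2 and -0.10 for Gusb. Among the 10 genes themselves, Lpl followed Pnpla2 most closely (r = 0.94) and Adrb3 followed Lipe (r = 0.99), while Angptl4 had r = 0.18 with Pnpla2 and -0.34 with Abhd5. The points of each r are libraries that share groups, so these values describe the samples and were given no test.

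The promoters of 4 genes are shown as examples of genes called above. They are Pnpla2 for palmitate, Abhd5 and G0s2 for A66 in the presence of palmitate, and Aqp7 for A66 alone. Lpl, also called with palmitate, had no matched window, and that of Pnpla3, also called with A66 in the presence of palmitate, is not shown. Each window runs from 250 bases before to 50 after a RefSeq start site in GRCm38.p6 and is read 5′ to 3′ on the strand of the gene, and RefSeq windows were matched for 7 of the 10 genes, not for Adrb3, Lpl or Angptl4. Capitals mark matches to the motifs found, a GC box (GGGCGG, or CCGCCC on the other strand) and a nuclear receptor half-site (AGGTCA, or TGACCT on the other strand).
Pnpla2, chr7:141454938-141455237, forward strand: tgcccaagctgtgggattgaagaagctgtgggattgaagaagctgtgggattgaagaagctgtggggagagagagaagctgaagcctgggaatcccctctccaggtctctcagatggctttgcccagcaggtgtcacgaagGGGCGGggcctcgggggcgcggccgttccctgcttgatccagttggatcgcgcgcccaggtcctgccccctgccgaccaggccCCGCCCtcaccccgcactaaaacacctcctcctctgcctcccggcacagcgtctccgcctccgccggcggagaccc
Abhd5, chr9:122351366-122351665, forward strand: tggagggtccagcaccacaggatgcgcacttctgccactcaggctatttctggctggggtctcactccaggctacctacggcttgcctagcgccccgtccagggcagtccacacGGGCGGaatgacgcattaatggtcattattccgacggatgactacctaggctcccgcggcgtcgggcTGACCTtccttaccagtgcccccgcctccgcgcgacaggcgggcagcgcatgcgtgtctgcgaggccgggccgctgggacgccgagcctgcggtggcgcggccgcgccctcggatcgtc
G0s2, chr1:193273139-193273438, reverse strand: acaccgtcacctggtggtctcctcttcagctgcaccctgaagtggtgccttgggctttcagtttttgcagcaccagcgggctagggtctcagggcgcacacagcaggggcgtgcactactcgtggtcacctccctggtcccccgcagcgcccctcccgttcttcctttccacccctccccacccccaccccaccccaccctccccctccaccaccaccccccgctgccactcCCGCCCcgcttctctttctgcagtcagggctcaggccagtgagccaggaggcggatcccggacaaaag
Aqp7, chr4:41048087-41048386, reverse strand: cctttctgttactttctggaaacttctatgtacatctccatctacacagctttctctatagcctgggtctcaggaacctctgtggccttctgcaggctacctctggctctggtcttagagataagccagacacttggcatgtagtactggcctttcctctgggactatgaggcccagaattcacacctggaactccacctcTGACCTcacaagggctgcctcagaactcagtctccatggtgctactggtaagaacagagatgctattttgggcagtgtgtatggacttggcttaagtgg

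Counted from the start site, GC boxes began at positions -109 and -26 of Pnpla2, -136 of Abhd5 and -18 of G0s2, and none was found in the Aqp7 window. Lipe, Mgll and Pnpla3 held them too, and 35.7% of 32851 RefSeq windows of this length did. A nuclear receptor half-site began at position -69 of Abhd5 and -49 of Aqp7, and a second Aqp7 window, at another start site, held it at -223 and -101, the first of which is the same site. The half-site was in 16.3% of all windows. A direct repeat of this half-site, 2 copies in the same direction with any 1 base between, the element bound by PPAR and RXR, was in 0.0396% of all windows and in none of these. The forkhead core TGTTTAC, in 3.65% of all windows, was found at -119 of a second Lipe start and at -241 of Mgll, the E-box CACGTG (7.15%) in Lipe and Mgll, CCAAT (37.4%) in Pnpla3 and TATAAA (13.6%) in none of the windows of the 7 genes. Motifs were searched on both strands, and a match describes the letters only.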

How the data were processed

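Raw counts per Ensembl gene, with no normalization, are the values the authors deposited for the 8 libraries, made with TopHat2 2.0.11 and HTSeq on GRCm38. Libraries were stranded, and the strand setting and annotation of the counting are not given in the sources used here. The deposited table also holds 6 columns of the authors' DESeq2 comparison (mean normalized count, log2 fold change, its standard error, Wald statistic, p and adjusted p), which were not used. Of 43629 genes, 42462 matched a symbol in GENCODE release 21 for mouse, the source of coordinates and exon lengths. The 10 genes and the lists were chosen with earlier results of these data known.

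Counts were tested in R 4.3.3 with edgeR 4.0.16 (TMM, filterByExpr with a minimum count of 10, quasi-likelihood test, Benjamini-Hochberg adjustment). The fit of A66 against untreated cells held their 4 libraries, and other comparisons all 8. CPM were scaled to library totals multiplied by TMM factors. Nothing in the labels says that same-numbered libraries were paired. Named from each list were the 2 genes with the smallest p for palmitate and for A66, and called genes beyond these were named after their values were seen. Some genes that this rule names are not reported here. Correlations used log2 (CPM + 0.5). With 2 libraries a group, p-values measure the spread between these cultures. Alternatives were RLE normalization, library size only, the DESeq2 1.42.0 Wald test, no filter, at least 10 counts in every library, a replicate block, a length correction, other libraries and leaving out each library. The scripts were tested on simulated data. The same alternatives were applied to the genes of the lists after the data were seen.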

Additional observations from a re-analysis of the deposited data

How the results depend on the processing

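The directions of calls among the 10 genes did not change under any alternative, but with 2 libraries a group many calls depended on 1 library, and the cause of the changes was not tested. With A66 against untreated cells, 0 of the 10 genes were called with other libraries in the fit, 2 with at least 10 counts in every library, 2 with the replicate block, 3 with library size only, 3 with the length correction, 4 with the replicate block and length correction together, and 4 with no filter, which called 459 genes in all and gave G0s2 0.0015 in place of a negative value. Leaving out 1 library gave 1 to 4 of the 10 and 98 to 635 genes, and log2 fold changes from -0.029 to 0.064 for Lipe, -0.070 to 0.15 for Mgll and -0.045 to 0.041 for G0s2. With palmitate against untreated cells, 1 of the 10 was called by DESeq2, 1 with the length correction and 1 with other libraries in the fit, and no filter gave 396 genes. Leaving out 1 library gave 0 to 4 of the 10 and 71 to 245 genes, with -0.14 to 0.080 for Mgll, -0.056 to 0.14 for G0s2, -0.37 to 0.041 for Adrb3 and -0.22 to 0.010 for Angptl4. With palmitate plus A66 against palmitate, no filter gave 652 genes and 6 of the 10, and leaving out 1 library gave 2 to 5 of the 10 and 147 to 494 genes, with -0.18 to 0.033 for Lipe, -0.58 to 0.022 for Mgll, -0.35 to 0.064 for Adrb3 and -0.038 to 0.16 for Aqp7. With palmitate plus A66 against A66, no filter gave 664 genes and the 4 libraries alone 689, and leaving out 1 library gave 0 to 7 of the 10 and 107 to 502 genes, with -0.15 to 0.048 for Angptl4. For the interaction, library size only gave 2 genes, DESeq2 21, the replicate block 3, and no filter 91 with 1 of the 10, and leaving out 1 library gave 0 to 10 genes and 0 to 1 of the 10. RLE normalization kept each of these counts within 1.5 times.

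The replicate numbers are not shown to pair the libraries. Over 10325 genes, which are not independent, the deviations of same-numbered libraries correlated at 0.023 between untreated and A66, 0.040 between untreated and palmitate, 0.14 between palmitate and the combination and -0.13 between A66 and the combination. For the last pair, fits chosen after seeing the data called 760 genes with the replicate block in its 4 libraries and 1371 with crossed numbers, each with 8 of the 10. Mgll, with 111 to 192 counts a library, is the gene for which depth limits the comparison most.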
